A study of Mus musculus with 12 samples.

Results

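The heat shock proteins and their DNAJ and BAG co-chaperones were examined in mouse gastrocnemius, a muscle of the calf, as a family of 71 genes among the 10475 listed. Genes were taken by symbol: the Hsp gene families, the Dnaja, Dnajb and Dnajc genes, Bag1 to Bag6, the small heat shock protein gene Cryab and the regulator Hsf1. Poly(A)-selected RNA of 12 libraries was sequenced. The groups were TG ZT12, WT ZT12, TG ZT0 and WT ZT0, with 3 libraries each. TG mice overexpress E4BP4, a clock-linked repressor of transcription, specifically in the liver, and WT mice are wild type. All were C57BL/6, 8 weeks old, on chow in a cycle of 12 h light and 12 h dark, and ZT (Zeitgeber time, in hours) 0 is lights on and ZT12 lights off. The promoter driving the transgene is not given in the sources used here. The labels do not state that the libraries of a group are of different mice, so p-values measure the spread between libraries, which may be technical.

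Molecular chaperones keep other proteins folded. Small heat shock proteins hold unfolding proteins, HSP70 and HSP90 refold them in cycles of ATP hydrolysis, DNAJ proteins bring substrates to HSP70 and start its hydrolysis, and HSP110 and BAG proteins release the nucleotide again. In muscle several small heat shock proteins sit at the Z-disc and at filaments under mechanical load, and BAG3 with HSPB8 hands damaged sarcomere proteins to autophagy. Under heat or proteotoxic stress, HSF1 binds arrays of a short motif in the promoters of inducible chaperone genes and raises their transcription.

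All 71 members passed the filter of at least 1 TPM (transcripts per 1e+06, a level scaled by transcript length) in at least 3 libraries, and 10415 genes in all were tested. No member passed an adjusted p of 0.05 in any of 7 comparisons. In units of 1e+06, the reads of a library in listed genes were 13.1 to 15.8 in TG ZT12, 17.7 to 20.2 in WT ZT12 and 9.21 to 13.1 over the ZT0 libraries. Depth thus differed with time, and at ZT12 also between the genotypes, without overlap. All 8 skeletal muscle markers were listed, at a summed 74319 to 87332 TPM, while no marker of lymphocytes or neutrophils and only 1 of 5 hepatocyte markers was listed. A pair of libraries stood apart. WT ZT0 replicate 2 had a median correlation of 0.946 with the other libraries, against 0.975 to 0.985 for the rest, and a summed interferon-gene level of 59.96 TPM against 6.48 to 14.3 TPM. TG ZT12 replicate 1 had the lowest median gene, at 4.96 TPM. Of the 71 members, 30 were at their highest in WT ZT0 replicate 2 and 38 at their lowest in TG ZT12 replicate 1. The general level of these libraries was shifted too. WT ZT0 replicate 2 had the highest median gene, 9.26 TPM, and the median-of-ratios scaling factors over listed genes were 1.29 and 0.78. The share of all genes at their extremes there was not counted, so the 30 and 38 are not read as a trait of the members.

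Promoter sequence was read for the 56 of 71 members found by symbol in the promoter set used. Windows ran from 250 bases before to 50 after each annotated start on GRCm38.p6. The heat shock factor motif, 3 alternating units GAA, TTC and GAA with any 2 bases between neighbours, was sought on both strands. It was present in the windows of 4 members, Dnajb6, Hspd1, Hspe1 and Hsph1. That is 7.14% of the members with a window, and it compares with 0.662% of all 27025 genes with a window. Many of those genes are not listed in this muscle, while every member is, so the backgrounds are unlike. The 4 windows are not independent, since Hspd1 and Hspe1, the genes of the mitochondrial chaperonin HSP60 and of its lid HSP10, are transcribed away from each other from starts 215 bases apart and share 285 bases of window. The windows with the motif are shown because HSF1 is the regulator of the inducible members, and that of Hspb7 because it had the largest time difference. Capitals mark every base covered by the motif, and the Hspe1 window holds 2 overlapping matches. The lines are 5′ to 3′ on the gene's strand, for Hspe1 (chr1:55087898-55088147, plus strand), Dnajb6 (chr5:29735648-29735897, plus), Hsph1 (chr5:149636287-149636316, minus, just after its start) and Hspb7 (chr4:141420529-141420778, plus).
Hspe1: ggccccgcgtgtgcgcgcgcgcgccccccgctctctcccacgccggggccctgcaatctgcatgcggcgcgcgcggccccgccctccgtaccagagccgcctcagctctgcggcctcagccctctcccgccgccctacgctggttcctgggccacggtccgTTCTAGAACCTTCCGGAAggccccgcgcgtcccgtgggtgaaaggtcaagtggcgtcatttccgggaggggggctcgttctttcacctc
Dnajb6: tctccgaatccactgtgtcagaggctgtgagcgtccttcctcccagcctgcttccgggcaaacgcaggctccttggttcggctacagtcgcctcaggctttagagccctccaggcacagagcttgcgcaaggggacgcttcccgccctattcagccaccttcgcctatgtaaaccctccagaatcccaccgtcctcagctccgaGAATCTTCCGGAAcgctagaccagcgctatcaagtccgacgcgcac
Hsph1: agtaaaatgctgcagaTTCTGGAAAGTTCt
Hspb7: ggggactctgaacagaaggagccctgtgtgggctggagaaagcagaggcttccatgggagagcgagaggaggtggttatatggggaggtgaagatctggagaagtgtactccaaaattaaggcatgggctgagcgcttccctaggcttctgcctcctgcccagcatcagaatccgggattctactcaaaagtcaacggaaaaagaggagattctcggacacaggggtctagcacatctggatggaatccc
The Hspb7 window holds no match to this motif. E4BP4 and the D-box factors of the clock bind a short motif, sought on both strands as TTATGTAA or TTACGTAA. It was in no window of the 56 members and in 1.23% of the 27025 genes. The E-box CACGTG of the clock activators was in windows of 6 of the 56 members (10.7%, against 8.09% of the 27025 genes). These were Dnajb9, Dnajc1, Dnajc16, Dnajc8, Hspd1 and Hsph1. All these motif counts are matches of letters in a short window and show neither binding nor its absence.

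The family summed to a mean of 2956 TPM, which was 0.597 to 0.791% of the listed TPM of a library. Small heat shock proteins, 7 genes, made up 38.9% of it. HSP90 (3 genes) held 13.6%, the 24 DNAJC genes 12.7%, and HSP70 with HSP110 (13 genes) 10.7%. The remaining shares were 8.08% for the 6 BAG genes, 7.15% for the 9 DNAJB genes, 5.10% for the 4 DNAJA genes and 2.41% for the mitochondrial chaperonin pair. The 5 highest genes held 48.6% of the sum. Only 6 members averaged more than 100 TPM, 38 lay between 10 and 100 TPM, and 27 lay below 10 TPM.

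**Figure D1:**
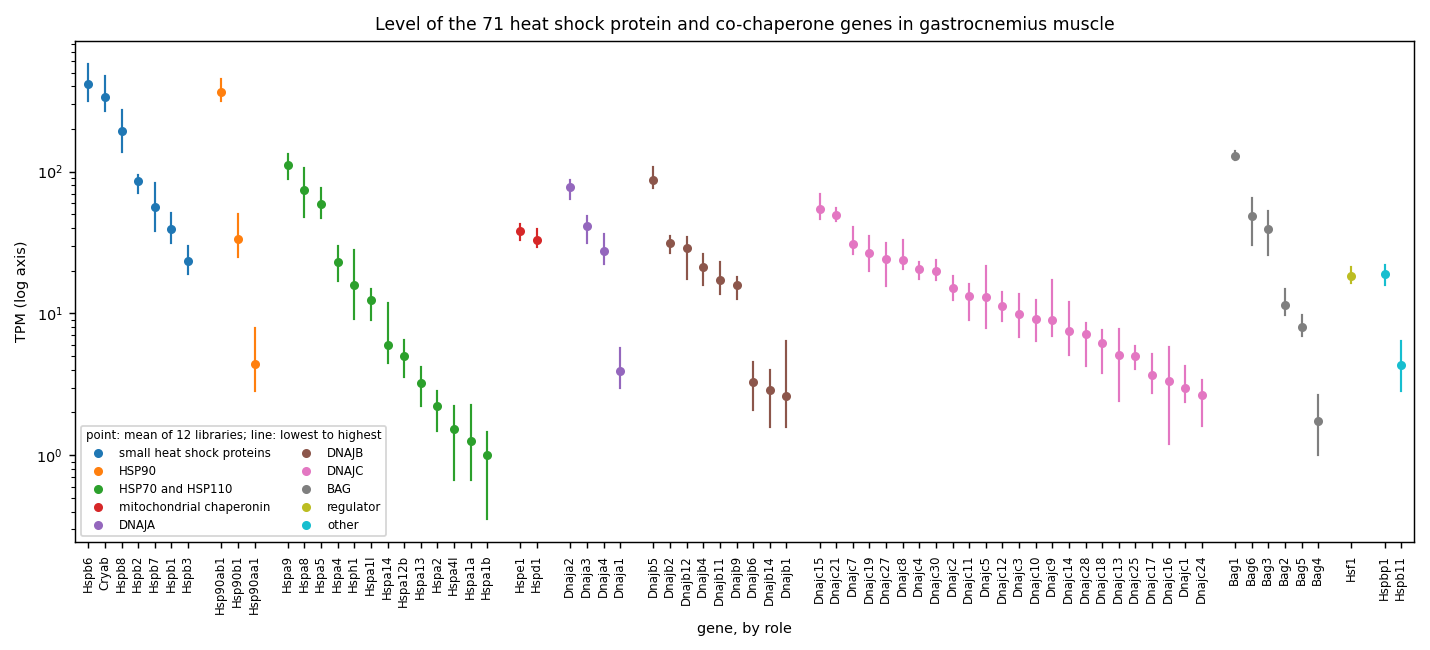
Mean level (points, TPM on a log axis) and the lowest to highest of 12 libraries (lines) for the 71 genes, arranged by role and by level within a role. The 3 highest means are Hspb6, Hsp90ab1 and Cryab, and the lowest is Hspa1b.

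Among the small heat shock proteins, Hspb6, a partner of actin and 14-3-3 proteins in muscle, averaged 417 TPM over the 12 libraries. Cryab, the chaperone of desmin filaments, averaged 336 TPM and Hspb8, the partner of BAG3, 192 TPM. Hspb2, which binds the myotonic dystrophy kinase, averaged 85.3 TPM, Hspb7, which binds filamin C, 56.6 TPM, and Hspb1 and Hspb3 39.5 and 23.3 TPM. Hspb2 and Cryab lie head to head on chromosome 9, 616 bases apart. Of the 50-base stretches of the Hspb2 transcripts in GENCODE M21, 28.0% also occur in Cryab transcripts, so that the level of Hspb2 is uncertain.

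In the HSP90 family the constitutive cytosolic gene Hsp90ab1 averaged 363 TPM and the inducible cytosolic gene Hsp90aa1 4.40 TPM, with the endoplasmic reticulum member Hsp90b1 (GRP94) between them at 33.5 TPM. In the HSP70 family the mitochondrial Hspa9 averaged 112 TPM, the constitutive cytosolic Hspa8 73.8 TPM and the endoplasmic reticulum Hspa5 (BiP) 59.0 TPM. The stress-inducible pair Hspa1a and Hspa1b were the lowest of all members, at 1.26 and 1.00 TPM, which rested on 35 to 81 and 18 to 61 reads per library. Reads of several of these genes can be placed in near-identical copies: 74.8% of the 50-base stretches of Hspa8, 66.3% of Hspa1a, 62.3% of Hspa1b, 60.4% of Hspb1 and 58.5% of Hsp90aa1 also occur in other genes' transcripts. The gene sharing most was Gm15459 for Hspa8, Hsp25-ps1 for Hspb1 and Gm12346 for Hsp90aa1, while Hspa1a and Hspa1b shared most with each other. Of the 70 members with a GENCODE transcript, 21 shared more than 10% of their stretches and 35 shared none, and the levels of the 21 are uncertain.

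Among the DNAJ genes, Dnajb5 was highest at 87.7 TPM, followed by Dnaja2, a cytosolic partner of constitutive HSP70, at 77.9 TPM, and by Dnajc15, a mitochondrial import factor, at 54.8 TPM. Dnajc21, which acts in ribosome assembly, averaged 49.7 TPM. Dnaja1 and the heat-inducible Dnajb1 averaged 3.93 and 2.63 TPM. Among the BAG genes, Bag1 averaged 129 TPM, Bag6, which guards hydrophobic proteins, 48.8 TPM, and Bag3 39.6 TPM. Hsf1 itself averaged 18.4 TPM and stayed between 16.3 and 21.1 TPM.

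Libraries of the same group differed least for Bag1, whose 12 values ran from 120.4 to 139.6 TPM (within-group SD 0.07 on the log2(TPM + 1) scale), Dnajc4 (0.08) and Dnajc21 (0.10). Among the 54 members averaging at least 5 TPM they differed most for Hsph1, the HSP110 gene (SD 0.44), Dnajc13 of endosomes (0.42), Dnajc5, the cysteine string protein of synaptic vesicles (0.41), Hspa8 (0.39) and Hsp90b1 (0.32). The median over these 54 members was 0.21, as over all genes at that level (0.21). Hsph1 read 9.11, 27.9 and 18.3 TPM in TG ZT12, 13.1, 22.1 and 15.6 TPM in WT ZT12, 13.8, 13.1 and 12.5 TPM in TG ZT0 and 15.4, 16.4 and 12.3 TPM in WT ZT0. Its highest and lowest values were both in TG ZT12, in replicates 2 and 1. Hspa8 read 48.2, 106 and 91.0 TPM in TG ZT12, 61.4, 87.7 and 77.6 TPM in WT ZT12, 69.3, 61.6 and 57.5 TPM in TG ZT0 and 66.2, 101 and 58.8 TPM in WT ZT0. Here too the extremes were TG ZT12 replicates 2 and 1, and WT ZT0 replicate 2 stood above the rest of ZT0.

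The first comparison set ZT12 against ZT0 over both genotypes (6 libraries against 6, limma on log2(TPM + 1) with genotype in the model). No member of 71 was called, against 1.02% of all genes (106, with 0.403% higher and 0.614% lower), and the median of the members was -0.004 against -0.03 for all genes tested. No member was without overlap between the times, against 0.538% of all genes with higher and 0.989% with lower values. At an unadjusted p under 0.05 stood 7 members: Hspb7, Cryab, Dnaja4 and Hspb1 with higher values at ZT12, and Dnajb4, Hspa1b and Hspa12b with lower values. That is 9.86% of the members, against 7.35% of all genes. By limma-voom on recovered reads 11 members had such a p. The share of all genes with such a p by limma-voom was not counted, here or in the comparisons below, so its counts of members have no background. It called 1 of 71 members, Hspb7, and 249 of all 10415 genes. Neither the limma share nor the limma-voom calls set the members apart. At ZT12 the summed level of 5 red cell markers also differed, at 2959, 4565 and 145 TPM in TG and 1526, 4257 and 176 TPM in WT against 86.2 to 163 TPM over the ZT0 libraries, as did depth. The part of either in these values was not tested. In whole muscle, a change in cell makeup and in RNA per cell cannot be told apart.

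Hspb7 (chromosome 4, 141420779 to 141425310 on mm10, plus strand) had 59.1, 77.1 and 41.1 TPM in TG ZT12, 82.7, 66.7 and 83.0 TPM in WT ZT12, 48.2, 45.3 and 38.2 TPM in TG ZT0 and 47.6, 49.7 and 40.8 TPM in WT ZT0. Every ZT12 library except TG replicate 3 lay above every ZT0 library, so that the groups overlapped in TG and were separate in WT. The difference was 0.56 (SE 0.14, 95% interval 0.26 to 0.86, limma adjusted p = 0.099) over both genotypes, 0.74 (SE 0.19, adjusted p = 0.287) in WT and 0.38 (SE 0.19, adjusted p = 1) in TG. Without TG ZT12 replicate 3 the pooled difference was 0.68 (limma adjusted p = 0.0089). Over all settings tried its adjusted p ran from 0.0089 to 0.263, so the call rests on settings and on that library.

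The other small heat shock proteins stood on the same side of ZT0 with values that overlapped. Cryab had 343, 477 and 324 TPM in TG ZT12, 310.2, 417 and 384 TPM in WT ZT12, 291, 281 and 331 TPM in TG ZT0 and 323, 284 and 268 TPM in WT ZT0, a difference of 0.33 (SE 0.11, limma adjusted p = 0.258). TG ZT12 replicates 1 and 2 and WT ZT12 replicates 2 and 3 were above every ZT0 library, and the remaining ZT12 libraries lay within the ZT0 range. Hspb6 had 341, 525 and 335 TPM in TG ZT12, 496, 579 and 441 TPM in WT ZT12, 445, 339.9 and 317 TPM in TG ZT0 and 397, 446 and 339 TPM in WT ZT0 (difference 0.23, limma adjusted p = 0.858). Hspb8 had 139, 270.2 and 250.2 TPM in TG ZT12, 173, 244 and 215 TPM in WT ZT12, 183, 168 and 162 TPM in TG ZT0 and 186, 173 and 144 TPM in WT ZT0 (difference 0.31, limma adjusted p = 0.705). For Hspb8 the lowest of the 12 values was a ZT12 library, TG replicate 1. Without that library and WT ZT0 replicate 2, limma called Hspb8 (0.48, adjusted p = 0.0261) and Hspa8 (0.45, adjusted p = 0.0455), and the adjusted p of Hspb8 over the settings tried reached 1.00.

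The fitted difference was above 0 for 7 of 7 small heat shock proteins over both genotypes (median 0.25, against -0.03 for all genes) and for 7 of 7 in TG (median 0.30, against -0.01). In WT it was above 0 for 6 of 7 (median 0.32, against -0.05), Hspb2 being the exception. Over both genotypes Hspb2 stood at only 0.02 (SE 0.08). Of all genes, 40.6% were above 0 over both genotypes, 46.7% in TG and 39.8% in WT. This count was not planned, and the 7 genes share the same libraries, so they are not independent. Under every setting tried the pooled count was 5 to 7 of 7, with 5 when both libraries that stood apart were left out, and the pooled median 0.20 to 0.33. Summed over the 7 genes the level was 1045, 1507 and 1105 TPM in TG ZT12, 1194, 1458 and 1281 TPM in WT ZT12, 1103, 976 and 1003 TPM in TG ZT0 and 1115, 1075 and 936 TPM in WT ZT0. The WT sums did not overlap between times, and in TG the sum of ZT0 replicate 1 lay above that of ZT12 replicate 1. Slow-fibre markers, 6 genes summed, were 544, 546 and 236 TPM in TG ZT12, 460.5, 352 and 747 TPM in WT ZT12, 321, 547 and 293 TPM in TG ZT0 and 381, 641 and 142 TPM in WT ZT0, and overlapped between the times. Fibro-adipogenic markers, 5 genes summed, were 401, 610 and 381 TPM in TG ZT12, 507, 571 and 559 TPM in WT ZT12, 405, 478 and 382 TPM in TG ZT0 and 412, 381 and 373 TPM in WT ZT0. Like the small heat shock protein sum, they did not overlap between the times in WT and were highest of TG ZT12 in replicate 2. The part of either marker list in the small heat shock protein values was not tested.

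**Figure D2:**
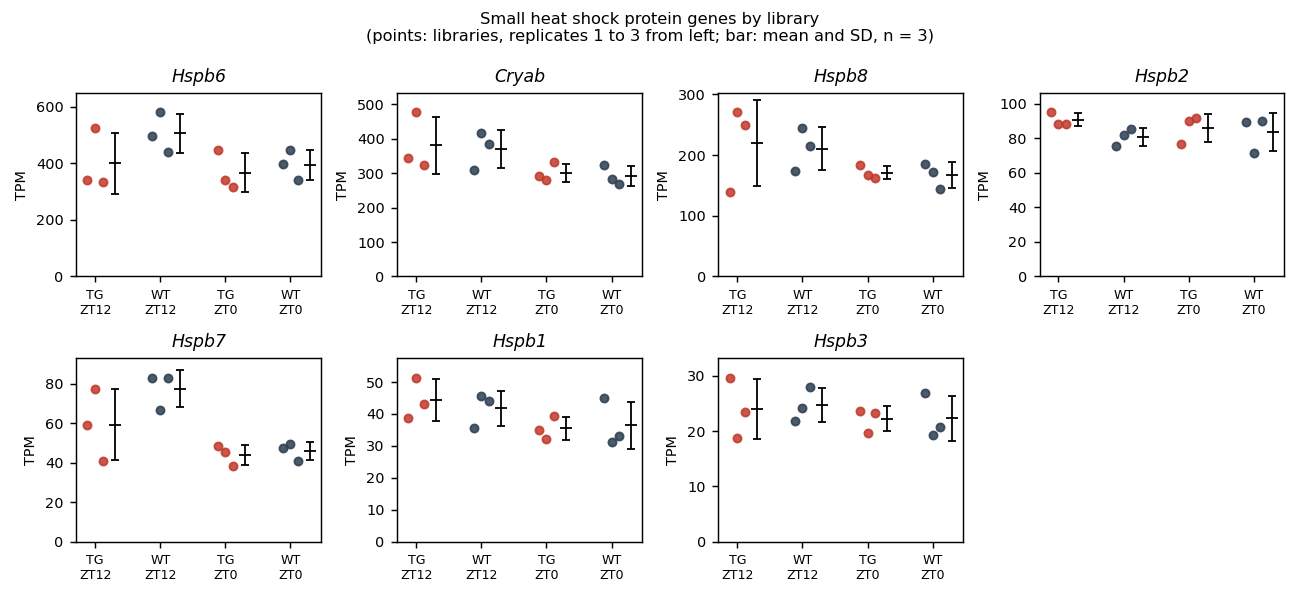
TPM of the 7 small heat shock protein genes in each library (points, replicates 1 to 3 from the left) with the mean and SD of each group of 3 (bars), for TG ZT12, WT ZT12, TG ZT0 and WT ZT0. Hspb7 in WT is separate between the times, at 66.7 to 83.0 TPM against 40.8 to 49.7 TPM, while every one of the other 6 overlaps in WT. Over the 12 libraries all 7 overlap between the times.

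Members with lower values at ZT12 included DNAJB and inducible HSP70 genes. Dnajb4, a cytosolic co-chaperone of muscle, had 17.4, 24.5 and 15.9 TPM in TG ZT12, 18.2, 20.9 and 16.6 TPM in WT ZT12, 26.3, 24.3 and 20.8 TPM in TG ZT0 and 25.7, 23.6 and 21.7 TPM in WT ZT0. The difference was -0.32 (SE 0.11, limma adjusted p = 0.317), with no overlap in WT and TG ZT12 replicate 2 inside the ZT0 range. Hspa1b had 0.352, 1.18 and 0.625 TPM in TG ZT12, 0.770, 0.917 and 0.893 TPM in WT ZT12, 1.43, 1.11 and 1.31 TPM in TG ZT0 and 1.47, 1.16 and 0.803 TPM in WT ZT0 (difference -0.31, limma adjusted p = 0.552). Genes are listed only at 1.0 TPM or more in WT ZT0 replicate 1, where Hspa1b had its highest value, 1.47 TPM. For a gene this low that selection favours lower values at ZT12, so its direction is no support for a time difference. The same limit applies to Hspa1a, low as well and also highest in WT ZT0 replicate 1 (difference -0.28, limma adjusted p = 0.838). Dnajb1, the main DNAJ partner of inducible HSP70, had 1.57, 2.67 and 1.84 TPM in TG ZT12, 1.76, 2.58 and 1.84 TPM in WT ZT12, 2.13, 3.21 and 2.38 TPM in TG ZT0 and 2.86, 6.44 and 2.29 TPM in WT ZT0 (difference -0.41, limma adjusted p = 0.680). The value of 6.44 TPM belonged to WT ZT0 replicate 2, and the other ZT0 values, 2.13 to 3.21 TPM, overlapped those of ZT12. Dnaja4 stood higher at ZT12 (difference 0.26, adjusted p = 0.566), with 51.9% of its stretches shared with the overlapping gene Wdr61, and Hspa12b lower (-0.23, adjusted p = 0.648).

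Within WT, ZT12 against ZT0, no member was called, against 0.115% of all genes (0.0192% higher and 0.096% lower), and 33 of 71 members had a difference above 0. An unadjusted p under 0.05 was reached by 1 member in limma (1.41%, against 4.65% of all genes) and by 4 in limma-voom. The libraries of the times did not overlap for 2 members with higher values, Hspb7 and Bag2, against 5.62% of all genes, and for 3 with lower values, Dnajb4, Hspa12b and Dnajc4, against 5.2% of all genes. Neither count is a larger share of the members than of all genes. Within TG no member was called, against 0.154% of all genes (0.0384% higher and 0.115% lower), and 33 of 71 again had a difference above 0. Here 2 members had an unadjusted p under 0.05 in limma (2.82%, against 3.53% of all genes) and 3 in limma-voom. There the times did not overlap for 1 member with higher values, Dnajc2, against 3.21% of all genes, and for 1 with lower values, Dnajc12, against 3.87%. Dnajc2, which sits on the ribosome, had 18.4, 15.1 and 16.1 TPM in TG ZT12 against 14.3, 12.7 and 12.5 TPM in TG ZT0, a difference of 0.30 (SE 0.12, limma adjusted p = 1). In WT it had 15.9, 15.1 and 15.8 TPM at ZT12 against 15.3, 16.5 and 12.7 TPM at ZT0.

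Genotype was compared first over both times, TG against WT (6 libraries against 6, limma with time in the model). No gene of 10415 was called (0%), and no member was without overlap between the genotypes, against 0% of all genes with higher and 0.0384% with lower values. At an unadjusted p under 0.05 stood 1 member, Dnajc4 (1.41% of the members), and 166 genes in all (1.59%), while limma-voom called none and gave such a p to 0 members. The difference was below 0 for 59 of 71 members, with a median of -0.07 against -0.09 for all genes. That side depends on the scaling: with median-of-ratios scaling the median of the members was 0.01 and that of all genes -0.002. At ZT0 that scaling moved the median of all genes to -0.002, against -0.10 without it.

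Dnajc4 (chromosome 19, 6987911 to 6992272 on mm10, minus strand) had 18.0, 17.5 and 18.7 TPM in TG ZT12 against 22.1, 21.0 and 20.3 TPM in WT ZT12, and 21.8, 17.8 and 21.1 TPM in TG ZT0 against 22.4, 22.9 and 22.4 TPM in WT ZT0. TG lay below WT without overlap at each time, while over both times the ranges crossed between TG ZT0 and WT ZT12. The difference over both times was -0.18 (SE 0.07, 95% interval -0.34 to -0.03, limma adjusted p = 0.929), and it was below 0 in every setting tried, between -0.21 and -0.09. Within 200 kb of Dnajc4 lay 17 tested genes, itself included, and 15 of them had a difference below 0, with a median of -0.16. Of all genes tested only 16.2% were above 0, so this count of signs is near that of all genes. Over both times 6 of the 17 had an unadjusted limma p under 0.05, against 1.59% of all genes. These were Dnajc4, Mir5046 (-1.35), Trmt112 (-0.75), Prdx5, Rps6ka4 (-0.63) and Esrra (-0.60), all lower in TG. At ZT0 5 of the 17 had such a p, and at ZT12 0. Dnajc4 was itself named for its small p over both times. Nor are the 6 independent. Mir5046 lies inside Rps6ka4, and Trmt112 overlaps Esrra on the opposite strand, where a read has no known origin. The count is therefore no test of the neighbourhood. None of the 17 passed the adjusted test, and the cause was not tested. Prdx5, 78.3 kb away, averaged 66.9 ± 4.08 TPM in TG ZT0 and 143 ± 6.66 TPM in WT ZT0, and 85.4 ± 29.7 TPM in TG ZT12 and 112 ± 41.1 TPM in WT ZT12 (SD, n = 3 each). Its difference over both times was -0.73 (limma adjusted p = 0.929), so it was not called either. This neighbourhood was looked at after the values of Dnajc4 were seen.

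At ZT12, TG against WT, no member and no gene was called (0%), and 2 members, Dnajc12 and Hspb7, had an unadjusted p under 0.05 by limma (2.82%, against 0.951% of all genes), and 1 member by limma-voom. TG libraries lay wholly above WT for 1 member, Hspb2, against 0.528% of all genes, and wholly below for 4 members, Dnajc12, Dnajc4, Dnajc24 and Dnajb5, against 4.26% of all genes. Dnajc12, a co-chaperone of aromatic amino acid hydroxylases in human, had 10.5, 9.27 and 8.86 TPM in TG ZT12 against 12.7, 13.6 and 11.4 TPM in WT ZT12. At ZT0 it had 12.1, 10.8 and 11.5 TPM in TG against 14.1, 10.3 and 10.8 TPM in WT. The groups were apart at ZT12 (difference -0.36, SE 0.14, limma adjusted p = 1.00) and overlapped at ZT0. For Hspb7 the ZT12 difference was -0.42 (SE 0.19, limma adjusted p = 1.00), with TG replicate 2 inside the WT range, and it ran from -0.63 to -0.19 over the settings tried. Depth was lower in every TG ZT12 library than in every WT ZT12 library, and its part in these differences was not tested.

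At ZT0, TG against WT, no member and no gene was called (0%), 0 members had an unadjusted p under 0.05 by limma (117 of all genes did), and 1 by limma-voom, and the smallest adjusted p of a member was 0.998. TG lay wholly above WT for 1 member, Dnajc15, against 1.4% of all genes, and wholly below for 2, Dnajc4 and Hspb11, against 3.22%. Dnajb5 had the smallest p, with 90.2, 81.2 and 77.3 TPM in TG against 108, 94.3 and 81.2 TPM in WT (difference -0.18, SE 0.11, limma adjusted p = 0.998). The lowest WT value fell inside the TG range. In the authors' deposited table, made for each time alone, the smallest p of the 71 members was 0.501 at ZT0 and 0.144 at ZT12, and 0 had a p under 0.05 at either time.

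The difference of the genotype effects between the times (interaction) was called for no member and no gene (0%). By limma 0 members had an unadjusted p under 0.05, against 0.663% of all genes, and by limma-voom 0 members. Its smallest p among members was that of Dnajc12 (-0.34, SE 0.20, limma adjusted p = 1.00), followed by Hsp90ab1 (0.27) and Dnajc2 (0.23). Hsp90ab1 had 326, 447 and 403 TPM in TG ZT12 against 329.8, 360.4 and 358 TPM in WT ZT12, and 331, 338 and 347 TPM in TG ZT0 against 351, 451 and 316 TPM in WT ZT0. The highest values of the gene, 447 and 451 TPM, belonged to TG ZT12 replicate 2 and WT ZT0 replicate 2.

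**Figure D3:**
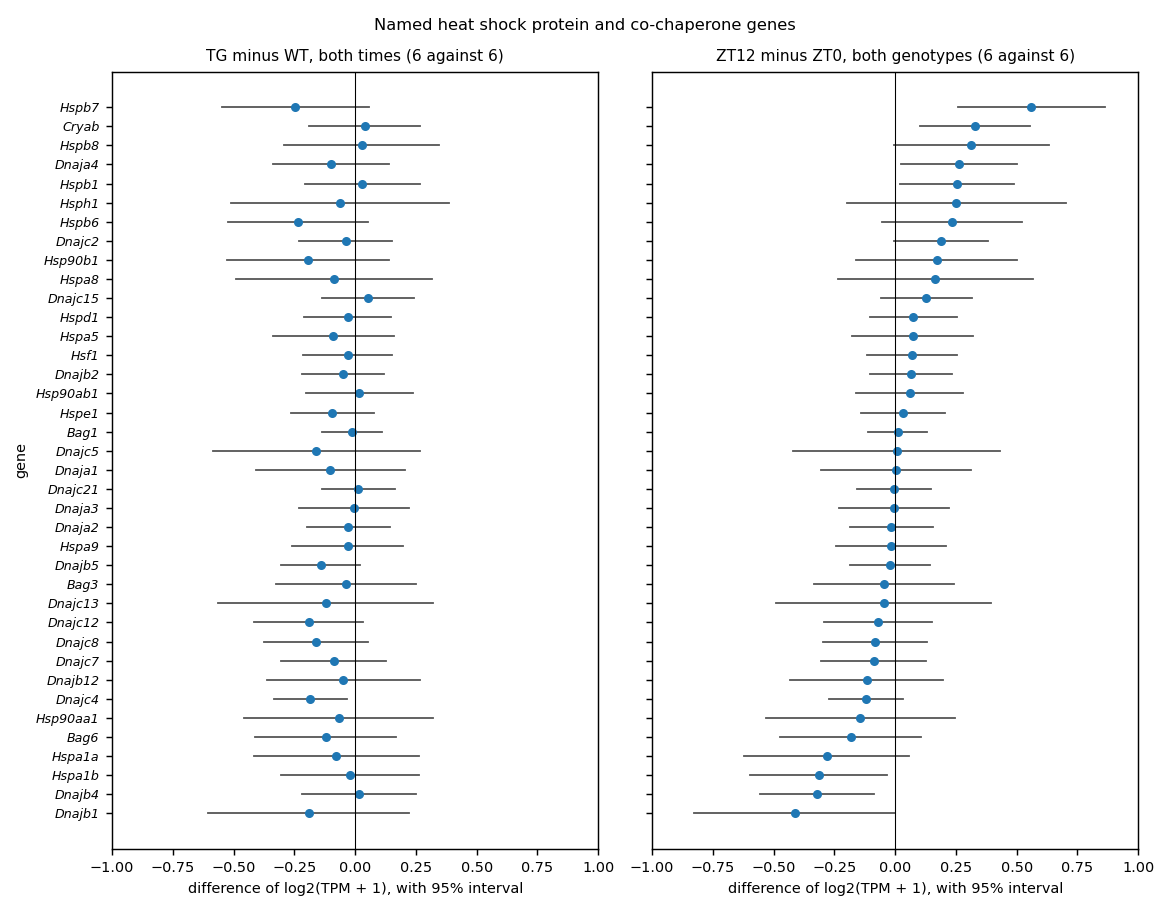
Differences of log2(TPM + 1) (points) with 95% intervals (lines) for 38 named genes, on the left TG minus WT over both times and on the right ZT12 minus ZT0 over both genotypes, 6 libraries against 6 in each. The intervals of Dnajc4 on the left and of Hspb7, Cryab, Dnaja4, Hspb1, Dnajb4 and Hspa1b on the right do not include 0, and none of these passed the adjusted test.

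A list of 14 members with a known response to heat shock gave 0 calls in every comparison. It holds Hspa1a, Hspa1b, Hspa8, Hsp90aa1, Hsp90ab1, Hsph1, Hspb1, Cryab, Hspd1, Hspe1, Dnajb1, Dnaja1, Dnajb4 and Bag3, of which Hspa8 and Hsp90ab1 are mainly constitutive. Over both genotypes 8 of 14 stood above 0 at ZT12 (median 0.02, against -0.03 for all genes), and over both times 4 of 14 stood above 0 in TG (median -0.05, against -0.09). In TG ZT12 replicate 2, 6 of the 14 were at their highest of the 12 libraries and the median deviation from the gene's mean was 0.29. In TG ZT12 replicate 1, 7 of the 14 were at their lowest and the median deviation was -0.28. Over all 71 members the median deviations in these libraries were 0.20 and -0.24, so the pattern was not particular to the list. In WT ZT0 replicate 2, 4 of 14 were at their highest (median 0.15), among them Dnajb1, Hsp90aa1 and Dnaja1. Hsp90aa1 read 7.83 TPM there against 3.10 to 4.92 TPM in the other ZT0 libraries and 2.84 to 5.12 TPM at ZT12. The median listed gene was also lowest in TG ZT12 replicate 1, at 4.96 TPM. It was highest in WT ZT0 replicate 2 and next highest in TG ZT12 replicate 2, at 9.26 and 7.25 TPM. The remaining libraries had 5.63 to 6.73 TPM. The share of all genes at their extremes was not counted, so the counts of the 14 are not read as a trait of the list.

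**Figure D4:**
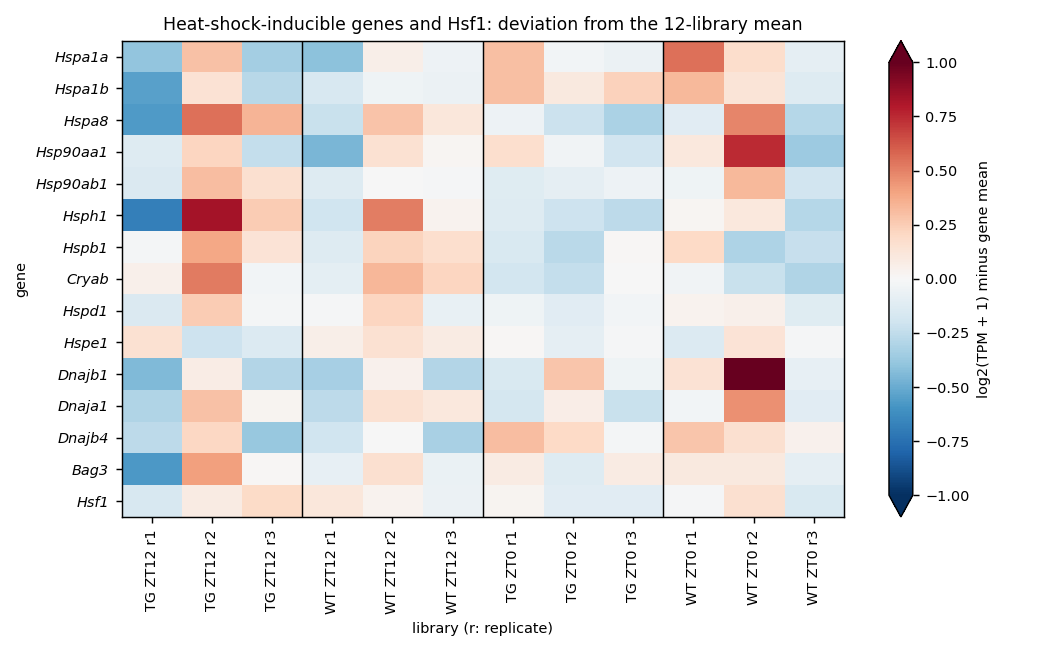
Deviation of log2(TPM + 1) from each gene's mean over 12 libraries (colour, red above and blue below, scale ending at 1) for the 14 inducible genes and Hsf1, with libraries grouped as TG ZT12, WT ZT12, TG ZT0 and WT ZT0. Opposite colours lie side by side in TG ZT12, where the median deviation is -0.28 in replicate 1 and 0.29 in replicate 2. Over all 71 members it is -0.24 and 0.20 in these libraries.

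By compartment, 9 endoplasmic reticulum members (Hspa5, Hsp90b1 and 7 further genes) had a median difference of 0.01 at ZT12 over both genotypes and -0.07 in TG over both times, with 0 calls. The 9 mitochondrial members listed had -0.01 and -0.03, with 0 calls. Partner genes outside the family were read from lists of 20 cytosolic partners, 8 subunits of the chaperonin TRiC, 12 endoplasmic reticulum partners, 6 mitochondrial partners and 2 cold-inducible genes, all tested. Genotype gave 0 calls in any of these lists. By time over both genotypes, 1 cytosolic partner fell and 1 mitochondrial partner rose, and no other was called, against 1.02% of all genes. Fkbp5, an HSP90 co-chaperone of steroid receptors and a glucocorticoid target, fell to 9.51, 19.9 and 12.2 TPM in TG ZT12 and 13.5, 12.1 and 9.46 TPM in WT ZT12, against 27.0, 24.3 and 18.1 TPM in TG ZT0 and 24.6, 26.7 and 26.3 TPM in WT ZT0 (-0.92, SE 0.16, limma adjusted p = 0.0137). Only TG overlapped between the times. Clpx, the unfoldase of the mitochondrial protease ClpXP, had 24.6, 26.5 and 27.9 TPM in TG ZT12 and 28.6, 29.1 and 28.3 TPM in WT ZT12, against 22.3, 22.0 and 18.7 TPM in TG ZT0 and 21.5, 21.4 and 23.1 TPM in WT ZT0 (0.34, SE 0.07, limma adjusted p = 0.0293). Every ZT12 library lay above every ZT0 library. Neither the mitochondrial HSP70 gene Hspa9 nor Hspd1 and Hspe1 of the mitochondrial chaperonin was called in that comparison, with differences of -0.02, 0.07 and 0.03.

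**Figure D5:**
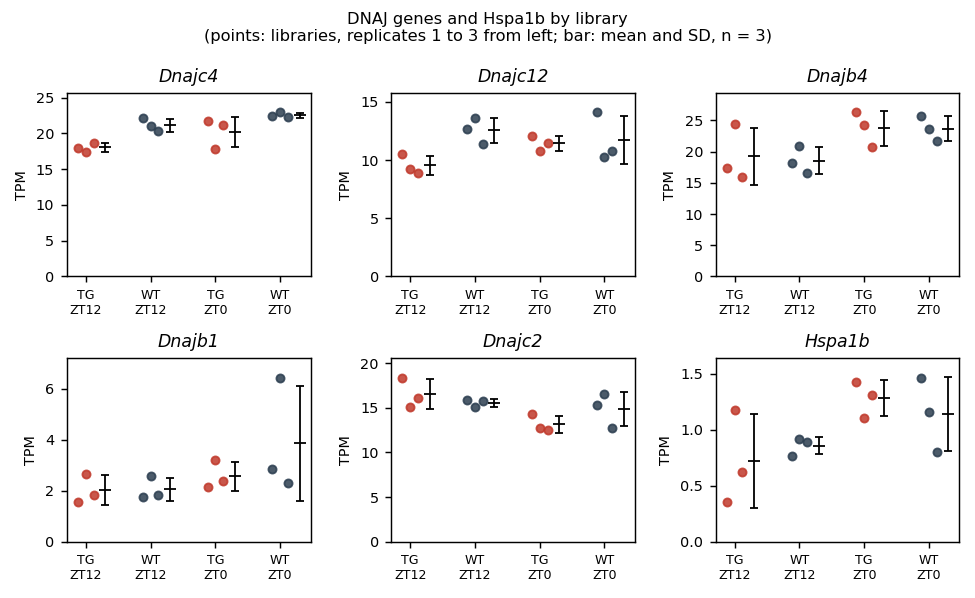
TPM of Dnajc4, Dnajc12, Dnajb4, Dnajb1, Dnajc2 and Hspa1b in each library (points, replicates 1 to 3 from the left) with the mean and SD of each group of 3 (bars). Dnajc4 in TG stays below WT at each time, and a single WT ZT0 library holds the highest Dnajb1 value, 6.44 TPM.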

How the data were processed

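RNA of 12 gastrocnemius libraries (kit without strand marks, so a read over a pair of antisense genes has no known origin) was processed, per the submitters' processing notes, on mm10 with HOMER 4.11.1, STAR, bcl2fastq and DESeq2, in no stated order. The deposited TPM table lists 10475 genes made by the authors, each at 1.0 TPM or more in WT ZT0 replicate 1. The authors' comparison tables gave coordinates, transcript lengths, the deposited log2 fold changes and p-values. Their 12 per-library columns were not used. A further 11 family genes in those tables were not analysed here.

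Genes with at least 1 TPM in 3 libraries (10415) were tested with limma 3.58.1 (trend, R 4.3.3) on log2(TPM + 1), a scale that understates changes of low genes. Single-time and single-genotype contrasts and the interaction used a mean for each of the 4 groups, and pooled contrasts an additive model. Adjusted p-values are Benjamini-Hochberg over all genes, with calls under 0.05. The fitting script was first checked on simulated data, and no printed value comes from those. TPM times length gave whole reads for 99.97 to 100.0% of values under 500 reads (within 0.1 read), which gave depths. The labels do not state whether replicate numbers pair libraries, and the main fit used no pairing. Residuals of the 18 same-number pairs correlated at -0.35 to 0.29 (median 0.06, against -0.02 for other numbers), which does not decide it.

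Named genes were the 14 inducible members and Hsf1, the 3 highest of each role, the 3 of smallest p in each contrast, and the 5 most and 3 least variable members averaging at least 5 TPM. Other named genes were chosen after their values were seen. The members, lists and tests were chosen with earlier results of these data known. Alternatives were median-of-ratios, upper-quartile and quantile scaling, pseudocounts of 0.1 and 5, no filter, a filter of 5 TPM, a replicate block, limma-voom on recovered reads, the 2 groups alone, and libraries left out. Figures were drawn in matplotlib 3.10.9 (Python 3.11.15), tables in pandas 2.3.3 and numpy 2.4.6.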

Additional observations from a re-analysis of the deposited data

How the results depend on the processing

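The count of members called stayed at 0 under all alternatives in 6 of the 7 comparisons. For ZT12 against ZT0 over both genotypes it was 1 with quantile normalization (Hspb7, limma adjusted p = 0.04997), 1 with limma-voom on recovered reads (Hspb7, adjusted p = 0.0475) and 2 (Hspa8 and Hspb8) without both TG ZT12 replicate 1 and WT ZT0 replicate 2. Leaving out 1 library at a time gave 0 to 1, with 1 without TG ZT12 replicate 3. The cause was not tested. With the replicate block 0 members were called in any comparison, and the pairing left all-gene calls at 15 in WT, 18 in TG and 130 over both genotypes for time, against 12, 16 and 106 without it. All-gene calls for time over both genotypes were 233 with median-of-ratios, 220 with upper-quartile and 217 with quantile scaling and 249 with limma-voom. In WT they were 55, 47, 52 and 73, and in TG 31, 29, 33 and 29, and 3 in TG with the 2 groups alone. Low levels limit Hspa1a, Hspa1b, Hspa4l and Bag4, at about 1 to 2 TPM.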
